A study of Mus musculus with 12 samples.

Results

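The 9 genes described here encode the enzymes that buffer ATP in muscle, the proteins that make and import creatine, and the oxygen-binding protein myoglobin. They were chosen by name as the rows of the FPKM table whose Ensembl identifiers map to Ckm, Ckb, Ckmt1, Ckmt2, Ak1, Ampd1, Slc6a8, Gatm and Mb, which is 9 of 46983 genes. FPKM is a fragment count scaled to the length of the gene and to the number of mapped fragments in the library. Of the 9 genes, 7 had at least 0.1 FPKM in at least 3 of the 12 libraries and entered the tests. Ckmt1 and Ckmt2 did not pass this filter, and Ampd1 passed it only through the 3 libraries of the group in which it was highest.

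All libraries came from C2C12, a mouse skeletal myoblast line that forms myotubes in culture. PPARγ/+ cells carried PB-IP, a PiggyBac transposon vector, with the coding sequence of PPARγ, a nuclear receptor that drives adipocyte differentiation. The sources differ on the controls: their labels give both PbIP and WT, and the study's own text sets PPARγ/+ against a wild-type PB-IP group. The study's methods speak only of C2C12 cells for the controls, and the series description of inducible cells with uninduced controls. The vector is thus named for the controls, but whether they were vector-only, untransfected or uninduced cells was not settled. No inducer was given in the sources used here. Each cell type was sampled on 0d and on 5d of differentiation, with 3 libraries in each of the 4 groups. Transfected PPARγ/+ cells were selected with puromycin to obtain positive clones. The number of clones and the promoter that drives PPARγ were not given in the sources used here.

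Creatine kinases move a phosphate group between ATP and creatine, so that phosphocreatine can restore ATP at sites of rapid use. Ckm encodes the muscle isoform and Ckb the brain isoform of the cytosol, while Ckmt1 and Ckmt2 encode the mitochondrial isoforms. Adenylate kinase joins pairs of ADP into ATP and AMP, AMP deaminase removes the AMP, and myoglobin stores oxygen in muscle fibres. The switch from the brain to the muscle isoform of creatine kinase is a classical mark of myoblasts that differentiate.

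Promoter windows from 250 bases before to 50 bases after the transcription start were held in the RefSeq table (GRCm38.p6) for 7 of the 9 genes, all but Ampd1 and Slc6a8. The windows of Ckm, Ckb and Mb are shown because these 3 genes were called in both cell types from 0d to 5d. For Mb the table holds 3 windows, of which the inner 2 overlap, and the upstream one of that pair is printed. Each sequence reads 5′ to 3′ on the strand of its gene. Capitals mark E-boxes (CANNTG, the letters bound by MyoD and myogenin) and MEF2 motif matches, searched on both strands.
Ckm promoter, chr7:19410844-19411143, plus strand: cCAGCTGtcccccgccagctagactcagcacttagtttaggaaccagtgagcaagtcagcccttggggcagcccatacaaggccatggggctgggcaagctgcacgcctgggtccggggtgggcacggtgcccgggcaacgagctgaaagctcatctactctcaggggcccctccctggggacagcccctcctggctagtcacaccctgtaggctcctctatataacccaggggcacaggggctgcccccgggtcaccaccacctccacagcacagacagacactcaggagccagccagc
Ckb promoter, chr12:111672289-111672588, minus strand: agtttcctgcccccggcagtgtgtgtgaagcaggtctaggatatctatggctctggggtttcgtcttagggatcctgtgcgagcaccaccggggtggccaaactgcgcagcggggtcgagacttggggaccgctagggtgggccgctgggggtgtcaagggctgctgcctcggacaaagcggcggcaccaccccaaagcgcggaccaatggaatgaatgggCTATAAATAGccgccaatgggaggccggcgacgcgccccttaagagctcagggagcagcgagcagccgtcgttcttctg
Mb promoter, chr15:77022738-77023037, minus strand: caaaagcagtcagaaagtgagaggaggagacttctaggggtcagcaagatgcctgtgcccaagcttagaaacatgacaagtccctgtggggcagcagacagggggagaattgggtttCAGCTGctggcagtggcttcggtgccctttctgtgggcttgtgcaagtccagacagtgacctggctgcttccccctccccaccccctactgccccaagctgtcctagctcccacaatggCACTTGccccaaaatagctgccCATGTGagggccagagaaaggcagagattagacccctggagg
The Ckm window held 1 E-box, CAGCTG, 249 bases before the start. The Mb window held 3 E-boxes, which began 133 and 14 bases before the start and 8 bases after it. The Ckb window held no E-box but 1 MEF2 motif match 29 bases before the start, which overlaps a TATA box (TATAAA). Of the 32851 windows in the table, 72.3% held an E-box, 16.3% held CAGCTG, 3.19% held a MEF2 motif match and 13.6% held TATAAA. A strict PPAR response element (2 copies of AGGTCA with 1 base between them) was in none of the windows of the 7 genes and in 0.0396% of all windows, and a CArG box was in none of them and in 1.63% of all windows. These matches describe letters and were not tested for binding.

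The libraries held from 15555817 to 22011740 fragments on genes, recovered from the steps of the FPKM values. Pparg ranged from 3.12 to 7.56 FPKM in the 6 WT libraries and from 28.0 to 92.7 FPKM in the 6 PPARγ/+ libraries, without distinction between the vector's copy and the cells' own. The 14 myotube markers, such as Myog and Acta1, summed to 16.0 to 162 FPKM in WT_0d, 1461 to 6964 in WT_5d, 10.7 to 34.0 in PPARγ/+_0d and 1407 to 1652 in PPARγ/+_5d. Of these markers, 13 entered the tests, and all 13 rose from 0d to 5d in each cell type. WT_0d replicate 2 was the highest of its group at 162 FPKM and WT_5d replicate 3 the lowest of its group at 1461 FPKM, so these 2 libraries stood apart, and results that rest on them are given with and without them. The 6 adipocyte markers summed to at most 0.0794 FPKM in WT libraries and to 2.90 to 67.2 FPKM in PPARγ/+ libraries, and the 6 markers of endothelium, blood cells and epithelium to at most 0.0885 FPKM in any library.

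From 0d to 5d, the muscle and brain isoforms of creatine kinase and myoglobin rose in both cell types, and Ampd1, the muscle AMP deaminase, rose in WT. Calls between days required an unadjusted p no higher than 0.05 together with a 2-fold change, and fold changes are on the log2(FPKM + 0.1) scale, which understates the change of low genes. In WT, Ckm, Ckb and Mb were called higher on 5d and none of the 7 genes tested lower, against 8.94% of all genes tested called higher and 7.53% called lower. Ampd1 was also called higher in WT, but it passed the filter only through WT_5d, so its call is a description and is not read against these shares. In PPARγ/+, 3 were called higher (Ckm, Ckb and Mb) and none lower, against 9.11% higher and 6.06% lower. The lowest 5d library lay above the highest 0d library for Ckm, Ckb, Ak1 and Mb in WT, against 20.2% of all genes tested. In PPARγ/+ it did so for Ckm, Ckb and Mb, against 23.8%. Ampd1 in WT showed the same order, which the filter fixed in advance. The highest 5d library lay below the lowest 0d library for none of the 9 in WT and for Slc6a8 and Gatm in PPARγ/+, against 30.9% and 34.4% of all genes tested. Calls between cell types required the same fold change and a p no higher than 0.05 after Benjamini-Hochberg adjustment over all genes tested. These comparisons use the same libraries as those between days and are not independent of them.

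**Figure D1:**
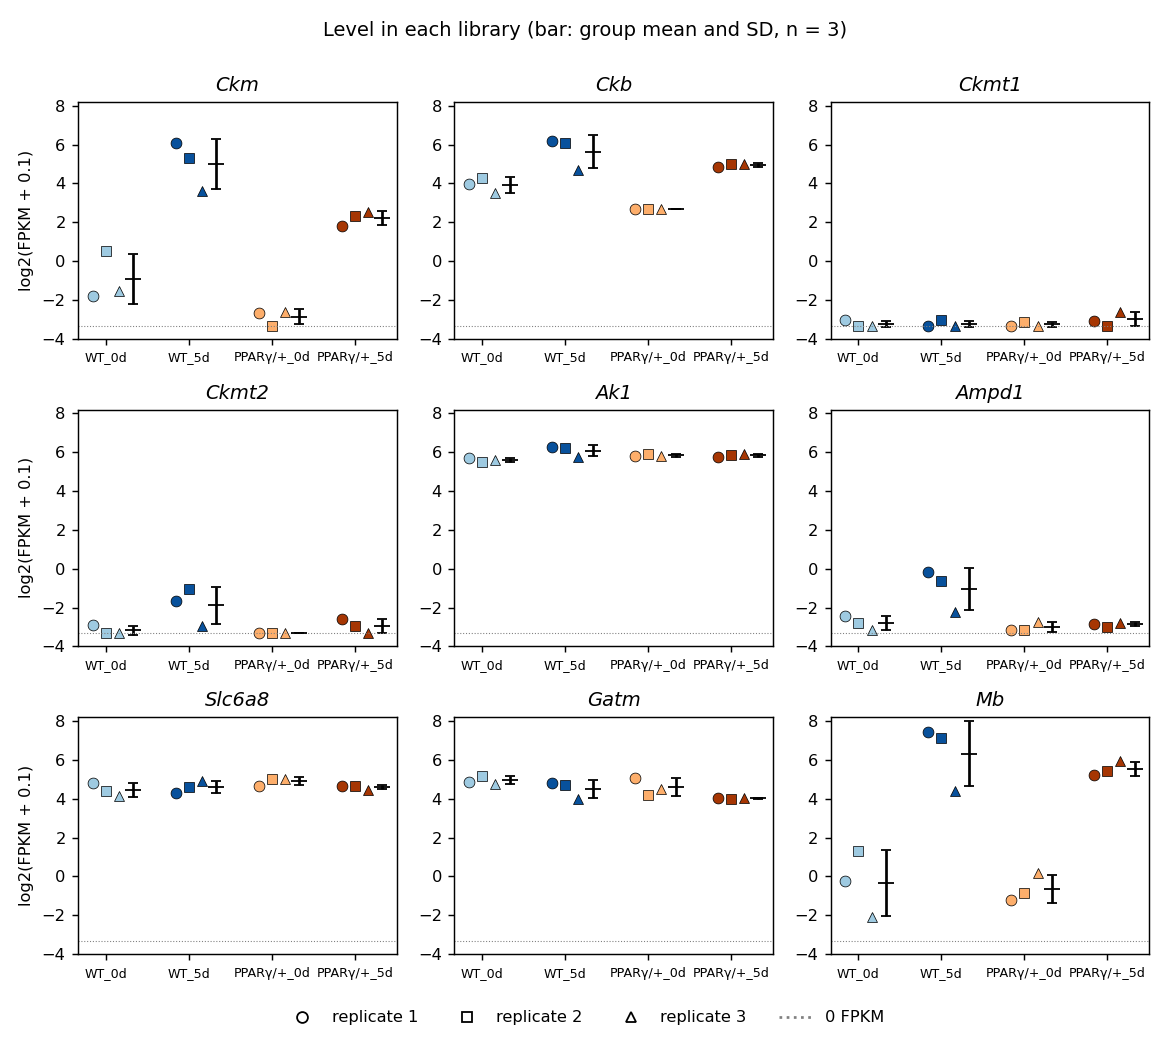
Level of each gene in each library as log2(FPKM + 0.1), by group, with replicates as symbols, the group mean and SD as a bar, and 0 FPKM as a dotted line. Ckm, Mb and Ckb lie higher on 5d than on 0d in both cell types, WT_5d replicate 3 is the lowest of its group for these 3 genes, and Ak1, Slc6a8 and Gatm stay within a narrow range.

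Ckm, the muscle creatine kinase, lies on chromosome 7 (GRCm38, 19404776 to 19422841, plus strand). In WT_0d its level was 0.182, 1.34 and 0.244 FPKM in replicates 1 to 3, and in WT_5d it was 67.8, 39.2 and 12 FPKM. The highest WT_0d library was replicate 2, which also had the most myotube marker RNA of its group, and the lowest WT_5d library was replicate 3, which had the least. The groups did not overlap, and Ckm rose by 5.94 log2 (SE 0.829, limma adjusted p = 0.00270). With 1 library left out, the log2 change ranged from 5.39 (without WT_5d replicate 1) to 6.68 (without WT_0d replicate 2), and without WT_5d replicate 3 it was 6.64. In bulk RNA, fewer cells of a type and less RNA per cell cannot be told apart, here and in every result that follows.

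In PPARγ/+ cells Ckm was almost absent on 0d, at 0.0579, 0 and 0.0647 FPKM, which is 2, 0 and 2 fragments. On 5d it reached 3.44, 4.86 and 5.71 FPKM, or 101, 148 and 150 fragments. All 0d libraries lay under a floor of 3 fragments per library, and the mean on 5d was 52.8-fold that floor. Ckm was called higher on 5d (limma adjusted p = 3.96e-05). The 3 PPARγ/+_5d libraries were close to each other and below every WT_5d library.

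Between cell types on 5d, mean Ckm was 4.67 ± 1.14 FPKM (SD, n = 3) in PPARγ/+ and 39.7 ± 27.9 FPKM (SD, n = 3) in WT. The log2 difference of -2.77 (SE 0.628) was not called (limma adjusted p = 0.180), with a 95% interval of -4.31 to -1.23. On 5d none of the 7 genes was called in either direction by limma, and 0.155% of all genes tested were. At an unadjusted p Ckm passed as lower in PPARγ/+, against 1.81% of all genes tested lower and 1.55% higher. Limma-voom on the recovered fragments called 0 of the 7 genes. Without WT_5d replicate 3, Ckm, Ckb and Mb were called lower in PPARγ/+, while the calls over all genes tested went up to 2.82% lower and 1.19% higher. Ampd1 passed as lower in both of these settings, but it entered the tests only through WT_5d and is not read against these shares. The log2 difference of Ckm was then -3.47 (adjusted p = 0.00999), and without WT_5d replicate 1 it was -2.22.
On 0d, Ckm was also below every WT library in all 3 PPARγ/+ libraries. The WT_0d mean was 6.68-fold the floor of the PPARγ/+_0d libraries, and 2.41-fold that floor without WT_0d replicate 2. The fitted difference was not called (limma adjusted p = 0.167).

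Ckb, the brain isoform, lies on chromosome 12 (GRCm38, 111669361 to 111672338, minus strand). Its level was 15.6, 19.2 and 11.1 FPKM in WT_0d and 71.6, 68.2 and 25.3 FPKM in WT_5d. It was 6.24, 6.38 and 6.26 FPKM in PPARγ/+_0d and 28.5, 32.0 and 32.2 FPKM in PPARγ/+_5d. The days did not overlap in either cell type, and the PPARγ/+ libraries of each day were far closer to each other than the WT libraries. Ckb rose by 1.73 log2 in WT (SE 0.430, limma adjusted p = 0.0218) and by 2.28 log2 in PPARγ/+ (SE 0.0631, adjusted p = 1.38e-05).

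Ckb was the 1 gene of the 7 called between the cell types on 0d. Its mean was 6.29 ± 0.0786 FPKM (SD, n = 3) in PPARγ/+_0d against 15.3 ± 4.03 FPKM (SD, n = 3) in WT_0d. The log2 difference was -1.23 (SE 0.192, limma adjusted p = 0.0312), while 1.23% of all genes tested were called lower in PPARγ/+ and 0.361% higher. At an unadjusted p Ckm passed as lower too, against 2.41% of all genes tested lower and 1.25% higher. Of the 9 genes, Ckm and Ckb were lower in every PPARγ/+_0d library than in any WT_0d library, against 13.1% of all genes tested, and Ak1 was higher in every one, against 13.7%. Ckb was still called without WT_0d replicate 3. The call was lost without WT_0d replicate 1 (adjusted p = 0.0879), WT_0d replicate 2 (0.0705) or PPARγ/+_0d replicate 1 (0.0823), 2 (0.120) or 3 (0.125), with a log2 difference from -1.24 to -1.06.
On 5d, WT replicate 3, at 25.3 FPKM, lay below all 3 PPARγ/+ libraries, while the other 2 lay above them. The log2 difference on 5d was -0.69 (SE 0.406, limma adjusted p = 0.512), -1.18 without WT_5d replicate 3 (adjusted p = 0.00604) and -0.43 without WT_5d replicate 1.

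The mitochondrial isoforms were hardly detected. Ckmt1, on chromosome 2 (GRCm38, 121357714 to 121363737, plus strand), had at most 0.0647 FPKM, or 3 fragments, in any library. Ckmt2, on chromosome 13 (GRCm38, 91853387 to 91876885, minus strand), had 8, 11 and 1 fragments in WT_5d and at most 2 fragments in any other library. The WT_5d mean of Ckmt2, 0.208 FPKM, was 2.30-fold the floor of WT_0d and 2.08-fold that of PPARγ/+_5d. Without WT_5d replicate 2 these ratios were 1.33 and 1.20.

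Because FPKM is scaled to gene length, the 4 creatine kinase genes can be summed and their shares compared within a library. On 0d Ckb made up 93.4% to 98.5% of the creatine kinase FPKM in WT and 99.0% to 99.8% in PPARγ/+. On 5d the share of Ckm was 48.6%, 36.4% and 32.2% in WT and 10.7%, 13.2% and 15.0% in PPARγ/+. Each WT_5d library therefore had a larger share of the muscle isoform than any PPARγ/+_5d library, including WT_5d replicate 3. The mean share was 39.1% ± 8.49 (SD, n = 3) in WT_5d and 13.0% ± 2.16 (SD, n = 3) in PPARγ/+_5d, a difference of -26.1 percentage points (two-sided exact permutation p = 0.1, the smallest that 3 against 3 libraries allow). Counted in fragments instead of FPKM, the difference was -25.5 percentage points. The summed creatine kinase FPKM did overlap on 5d, with 140, 108 and 37.3 in WT and 32.0, 36.9 and 37.9 in PPARγ/+ (exact permutation p = 0.2). WT_5d replicate 3 and the PPARγ/+_5d libraries were thus close in summed creatine kinase FPKM but not in its make-up.

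**Figure D2:**
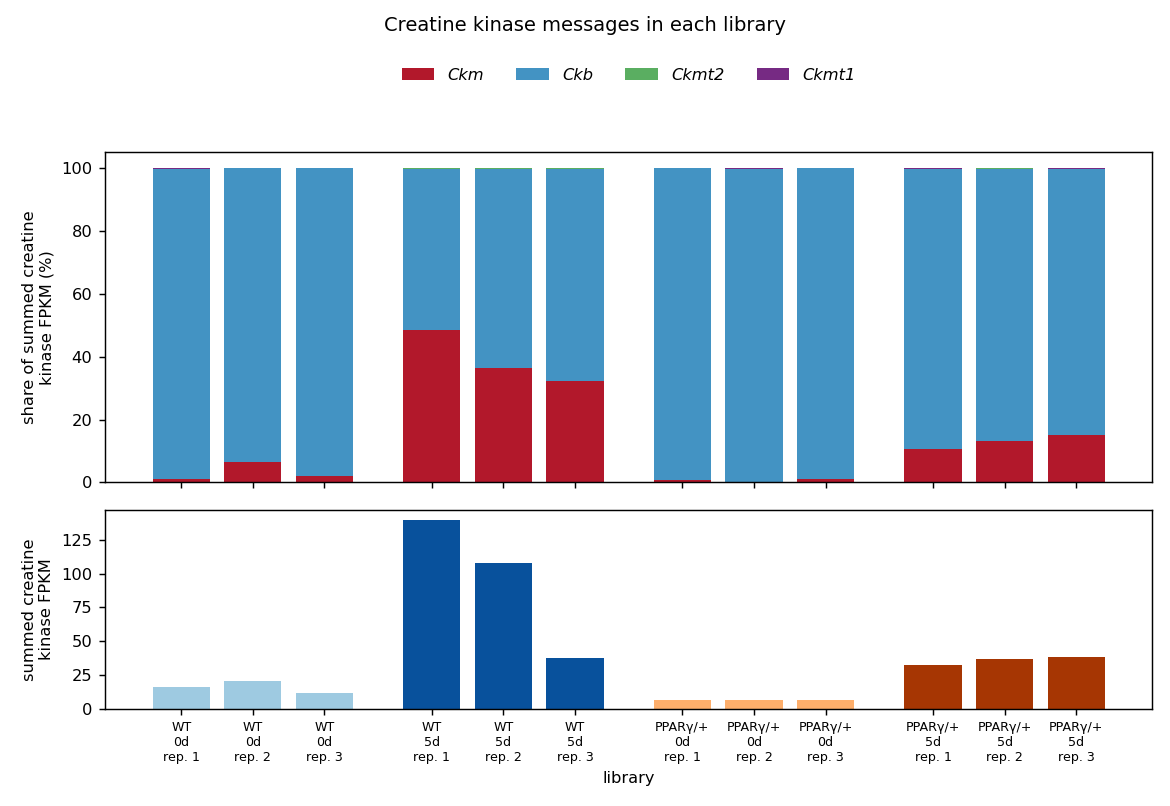
Share of each creatine kinase gene in the summed creatine kinase FPKM of each library (upper bars, percent) and that sum in FPKM (lower bars, coloured by group). Ckb fills nearly all of the 0d bars, Ckm reaches 32.2% to 48.6% in WT_5d and 10.7% to 15.0% in PPARγ/+_5d, and Ckmt1 and Ckmt2 are barely visible.

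Mb, which encodes myoglobin, lies on chromosome 15 (GRCm38, 77015487 to 77050670, minus strand). Its level was 0.741, 2.41 and 0.138 FPKM in WT_0d and 173, 139 and 20.7 FPKM in WT_5d. It was 0.327, 0.460 and 1.02 FPKM in PPARγ/+_0d and 36.6, 43.3 and 61.2 FPKM in PPARγ/+_5d. The days did not overlap in either cell type. Replicate 2 was again the highest of WT_0d and replicate 3 the lowest of WT_5d, below all 3 PPARγ/+_5d libraries. Mb rose by 6.64 log2 in WT (SE 1.09, limma adjusted p = 0.00492) and by 6.16 log2 in PPARγ/+ (SE 0.369, adjusted p = 5.53e-05). In WT the log2 change was 7.47 without WT_0d replicate 2, 5.77 without WT_0d replicate 3 and 7.60 without WT_5d replicate 3.
Between cell types Mb overlapped on both days. The log2 difference of PPARγ/+ from WT was -0.30 on 0d (SE 0.881, limma adjusted p = 0.878) and -0.78 on 5d (SE 0.817, adjusted p = 0.700). The 95% interval on 5d ran from -2.79 to 1.22, and the difference was -1.75 without WT_5d replicate 3 (adjusted p = 0.0229) and -0.22 without WT_5d replicate 1.

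Ckm and Mb thus stood differently to each other in the 2 cell types on 5d, while the cell types overlapped on 0d. On 5d the log2 ratio of Ckm to Mb within a library, with 0.1 added to each FPKM, was -1.35, -1.82 and -0.78 in WT and -3.37, -3.13 and -3.40 in PPARγ/+. How many other gene pairs separate in this way was not tested. On 0d the ratio ran from -1.58 to 0.53 in WT and from -2.77 to -1.44 in PPARγ/+. Ckm then had 5, 48 and 8 fragments in WT and 2, 0 and 2 in PPARγ/+, and Mb had 4 in WT_0d replicate 3. Apart from WT_0d replicate 2, the 0d ratios thus depend strongly on the value added.

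Myotube markers moved with these genes, so each gene was also set against their mean in the same library, an alternative chosen after seeing the data. This mean log2 level of 13 markers was 7.17, 6.68 and 4.88 in WT_5d and 4.73, 4.87 and 4.94 in PPARγ/+_5d. WT_5d replicate 3 and the PPARγ/+_5d libraries were therefore at nearly the same mean marker level. There, Ckm was 12 FPKM in WT_5d replicate 3 against 3.44 to 5.71 FPKM in PPARγ/+_5d, Mb was 20.7 against 36.6 to 61.2 FPKM, and Ckb was 25.3 against 28.5 to 32.2 FPKM. This rests on WT_5d replicate 3 alone, and the markers themselves split. Myh3, Tnni2, Tnnt3, Actn2, Myl1, Casq2 and Myom3 were higher in it than in every PPARγ/+_5d library, as Ckm was. Mymk, Acta1 and Mybpc1 were lower, as Mb and Ckb were, and Myog, Mylpf and Myom1 lay within the PPARγ/+_5d range. Relative to the markers on 5d, Ckm differed by -1.37 log2 between PPARγ/+ and WT, with -2.62 ± 0.26 (SD, n = 3) against -1.25 ± 0.16 (SD, n = 3) in WT. On the same scale Mb was higher in PPARγ/+ by 0.61 log2 and Ckb by 0.71 log2. Ak1 was higher by 1.16 log2 and Gatm by 0.91 log2, while Ampd1 differed by -0.44 log2. The value of Ampd1 is a description only. Its PPARγ/+_5d levels all lay below the 0.1 FPKM that is added, and it passed the filter only through WT_5d. For these 6 of the 7 genes the groups did not overlap on this scale, with a two-sided exact permutation p = 0.1 for each, the smallest possible, and for Slc6a8 (1.39 log2, p = 0.4) they did. The marker mean that is subtracted was higher on average in WT_5d, so a gene that hardly varies shifts up in PPARγ/+ on this scale. Of all genes tested, 26.9% were higher in PPARγ/+ without overlap and 0.472% were lower, so the higher values of Mb, Ckb, Ak1 and Gatm lie in the more common direction. The part of the amount of myotube RNA in the differences between cell types was not tested beyond these values.

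**Figure D3:**
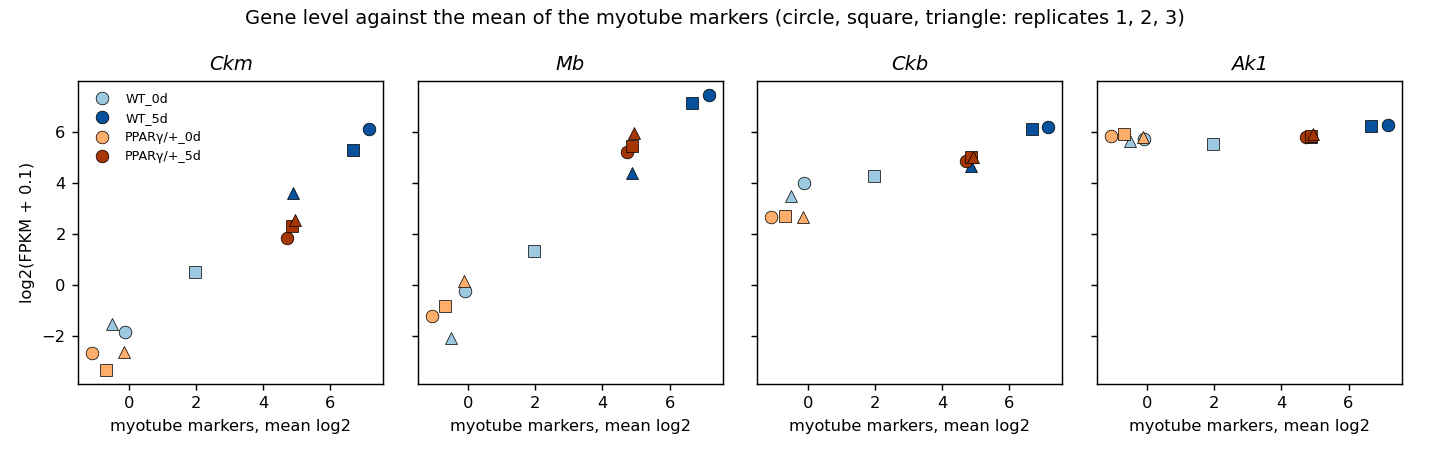
Level of Ckm, Mb, Ckb and Ak1 in each of the 12 libraries, log2(FPKM + 0.1), against the mean log2 level of 13 myotube markers in the same library. At marker means from 4.73 to 4.94, the triangle of WT_5d lies above the PPARγ/+_5d points for Ckm and below them for Mb and Ckb, while Ak1 hardly varies.

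Ak1, the cytosolic adenylate kinase, lies on chromosome 2 (GRCm38, 32621758 to 32635058, plus strand) and was well expressed in every library. Its level was 52.7, 45.1 and 49.0 FPKM in WT_0d and 76.9, 73.5 and 54.6 FPKM in WT_5d. It was 56.5, 59.8 and 55.1 FPKM in PPARγ/+_0d and 54.6, 56.9 and 60.5 FPKM in PPARγ/+_5d. The WT days did not overlap, but the 0.47 log2 difference (SE 0.145, limma adjusted p = 0.0461) was under the fold threshold. In PPARγ/+ the difference between days was 0.00 log2 (SE 0.0597, 95% interval -0.14 to 0.15). The difference between these changes (the interaction in a fit of all 12 libraries) was -0.46 log2 (SE 0.164, adjusted p = 0.272), and -0.62 without WT_5d replicate 3 (adjusted p = 0.0142).

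Ampd1, the muscle AMP deaminase, lies on chromosome 3 (GRCm38, 103074014 to 103099720, plus strand) and was low throughout. In WT_5d it had 0.775, 0.540 and 0.111 FPKM, or 70, 37 and 9 fragments, and in WT_0d 0.0872, 0.0447 and 0.0122 FPKM, or 6, 4 and 1 fragments. PPARγ/+ libraries had 1 to 4 fragments, with no more than 0.0516 FPKM on either day. Ampd1 rose by 1.76 log2 in WT (SE 0.555, limma adjusted p = 0.0482). The call was lost without WT_0d replicate 3 (log2 1.58), WT_5d replicate 1 (1.35) or WT_5d replicate 2 (1.57), and the change was 2.37 without WT_5d replicate 3. With 1 instead of 0.1 added to FPKM it was 0.47 and not called. In PPARγ/+ the log2 difference between days was 0.15 (SE 0.248, adjusted p = 0.643).
On 5d each WT library lay above each PPARγ/+ library for Ampd1, as for Ckm. For Ckm this is set against 8.31% of all genes tested with PPARγ/+ lower in this way. Ampd1 passed the filter only through WT_5d, which fixed this order in advance, so it is a description and is not read against that share. The WT_5d mean was 11.4-fold the floor of PPARγ/+_5d, and 7.78-fold that floor without WT_5d replicate 1. PPARγ/+_5d held 3, 2 and 3 fragments, at or just under the floor, so these ratios are not lower bounds. The fitted log2 difference of -1.84 (SE 0.538) was not called (limma adjusted p = 0.271), and it was -2.45 without WT_5d replicate 3 (adjusted p = 0.00950) and -1.42 without WT_5d replicate 1.

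The genes that supply creatine changed by less than the fold threshold. Slc6a8, the creatine transporter, lies on chromosome X (GRCm38, 73673150 to 73682502, plus strand). It had 28.0, 20.6 and 17.4 FPKM in WT_0d, 19.7, 24.1 and 30.1 FPKM in WT_5d, 25.5, 32.6 and 32.3 FPKM in PPARγ/+_0d and 25.2, 25.3 and 22.0 FPKM in PPARγ/+_5d. The WT days overlapped, and the PPARγ/+_5d libraries lay just below those of 0d. The log2 difference between days was 0.17 (SE 0.219, limma adjusted p = 0.586) in WT and -0.31 (SE 0.111, adjusted p = 0.0571) in PPARγ/+. Between cell types it was 0.47 on 0d (adjusted p = 0.232) and -0.01 on 5d (95% interval -0.40 to 0.39).

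Gatm encodes the enzyme of the first step of creatine synthesis and lies on chromosome 2 (GRCm38, 122594467 to 122611303, minus strand). It had 29.3, 36.2 and 27.4 FPKM in WT_0d, 28.4, 26.0 and 15.5 FPKM in WT_5d, 33.8, 17.9 and 22.5 FPKM in PPARγ/+_0d and 16.1, 15.5 and 16.5 FPKM in PPARγ/+_5d. Replicate 3 of WT_5d was at the level of PPARγ/+_5d. The WT days overlapped, while every PPARγ/+_5d library lay below every PPARγ/+_0d library. The log2 difference between days was -0.44 (SE 0.243, limma adjusted p = 0.199) in WT and -0.57 (SE 0.212, adjusted p = 0.0644) in PPARγ/+, where it was -0.32 without PPARγ/+_0d replicate 1 and -0.78 without PPARγ/+_0d replicate 2. On 5d the difference between cell types was -0.49 (SE 0.229, adjusted p = 0.434), -0.76 without WT_5d replicate 3 (adjusted p = 0.00736) and -0.32 without WT_5d replicate 1, under the fold threshold in each. The median of all genes tested was -0.08 log2 between days in WT and -0.10 in PPARγ/+, and median-ratio scaling moved both to 0.02. Under that scaling the PPARγ/+ difference between days was -0.44 for Gatm and -0.18 for Slc6a8.

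The change from 0d to 5d was compared between the cell types in one fit over all 12 libraries. None of the 7 genes was called by limma, against 0.760% of all genes tested, and limma-voom called 0. At an unadjusted p Ak1 passed with a smaller change in PPARγ/+, against 5.18% of all genes tested in that direction and 6.82% in the other. Ampd1 passed in the same direction, but it entered the tests only through WT_5d. It is therefore not read against these shares or those below. The interaction was -0.85 log2 for Ckm (95% interval -2.91 to 1.20), 0.55 for Ckb (-0.48 to 1.57), -0.48 for Mb (-3.21 to 2.24) and -1.61 for Ampd1 (adjusted p = 0.343). Without WT_5d replicate 3, Ak1 was called, against 2.92% of all genes tested, and Ampd1 was called as well (-2.21, adjusted p = 0.0215). Without both WT_0d replicate 2 and WT_5d replicate 3, Ckm was called too (-2.29, adjusted p = 0.0284), against 2.71% of all genes tested.

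**Figure D4:**
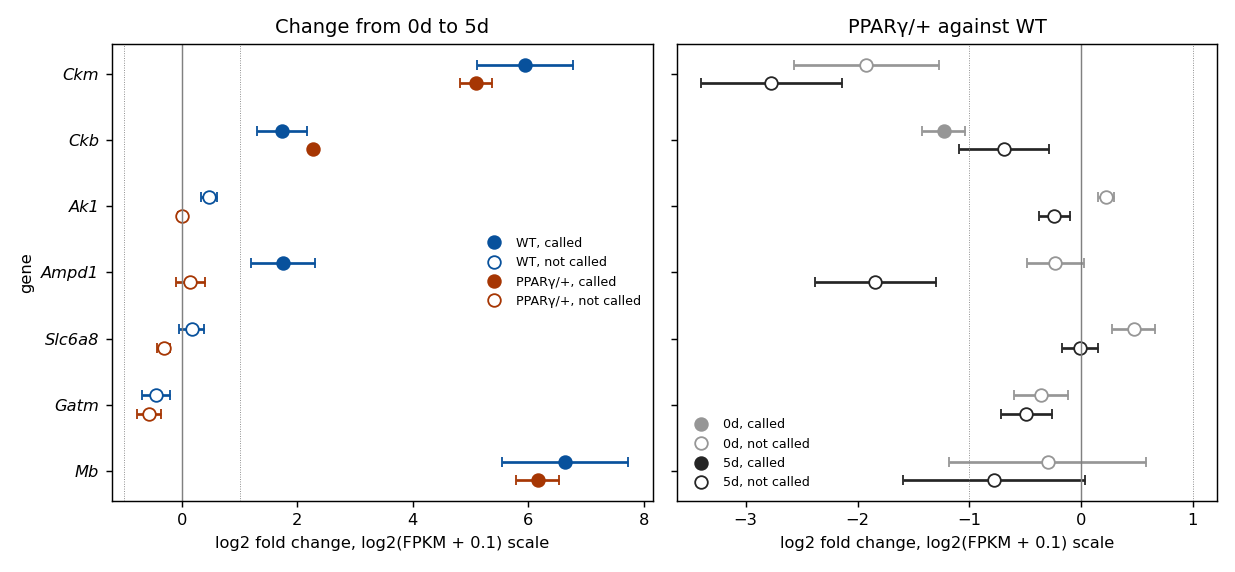
Fitted log2 fold changes with their SE for the 7 genes tested, from 0d to 5d in each cell type (left) and between cell types on each day (right), with filled points for called changes and dotted lines at the fold threshold. Ckm, Ckb and Mb are called in both cell types on the left, Ampd1 in WT, and Ckb on 0d is the 1 called difference on the right. The Ampd1 call is a description only, since this gene passed the filter only through WT_5d.

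In order of mean FPKM, WT_0d led with Ak1 (48.9), followed by Gatm (30.9), Slc6a8 (22.0) and Ckb (15.3), and Mb, Ckm and Ampd1 were at 1.10 FPKM or less. Ak1 stood clear of the rest, and the libraries of Gatm, Slc6a8 and Ckb overlapped from one to the next. In WT_5d Mb came first (111), then Ak1 (68.3), Ckb (55.0), Ckm (39.7), Slc6a8 (24.6) and Gatm (23.3), and each of these overlapped with the next. In PPARγ/+_0d the order was Ak1 (57.1), Slc6a8 (30.1), Gatm (24.7) and Ckb (6.29), with overlap between Slc6a8 and Gatm. In PPARγ/+_5d it was Ak1 (57.3), Mb (47.0), Ckb (30.9), Slc6a8 (24.1), Gatm (16.0) and Ckm (4.67), with overlap between Ak1 and Mb and between no other neighbours in that order.

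Other genes of the same pathways came from lists that include the genes above. For creatine synthesis and transport, 3 of 4 genes were tested and none was called in any comparison. Of the 8 adenylate kinases analysed here 6 were tested. Ak6, a nuclear adenylate kinase, fell from 6.73 ± 0.555 to 2.88 ± 0.0305 FPKM in WT and from 6.45 ± 0.303 to 2.64 ± 0.107 FPKM in PPARγ/+ (SD, n = 3). On the log2 scale Ak6 fell by 1.19 in WT and fell by 1.26 in PPARγ/+, and it was the 1 adenylate kinase called between days. The median of the list was -0.10 log2 in WT and -0.07 in PPARγ/+, close to that of all genes tested.

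All 6 genes of the purine nucleotide cycle were tested, and Ampd1 in WT was the 1 call between days. That call is a description only, since Ampd1 passed the filter only through WT_5d. Adssl1, the muscle adenylosuccinate synthetase, went from 22.5 ± 5.00 to 40.6 ± 5.32 FPKM in WT and from 27.1 ± 1.55 to 23.3 ± 1.42 FPKM in PPARγ/+ (SD, n = 3). Its interaction was called (-1.08 log2, SE 0.204, limma adjusted p = 0.0435), while its changes between days, 0.87 and -0.21 log2, were under the fold threshold. The call held without WT_0d replicate 1 or WT_5d replicate 3 and was lost without each of the other 10 libraries (adjusted p from 0.0628 to 0.126). Of 6 genes for the passage of ATP and ADP through the mitochondrial membranes 5 were tested. Slc25a5, an ATP and ADP carrier of growing cells, fell in WT from 192 ± 21.8 to 75.7 ± 11.1 FPKM and in PPARγ/+ from 159 ± 27.0 to 67.3 ± 3.47 FPKM (SD, n = 3). The list's median was -0.52 log2 in WT and -0.63 in PPARγ/+.
Of 3 globins, Mb and Cygb were tested. Cygb, cytoglobin, rose in PPARγ/+ from 0.135 ± 0.0574 to 0.407 ± 0.0623 FPKM (SD, n = 3), by 1.13 log2 (limma adjusted p = 0.00930). This rests on 4 to 24 fragments per library, and the change was 0.95 log2 and not called without PPARγ/+_0d replicate 3. The markers of proliferating cells, Mki67, Top2a, Ccnb1 and Cdk1, summed to 127 to 197 FPKM on 0d and 15.1 to 22.4 FPKM on 5d. Their part in the lower levels of Ak6 and Slc25a5 was not tested.

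**Figure D5:**
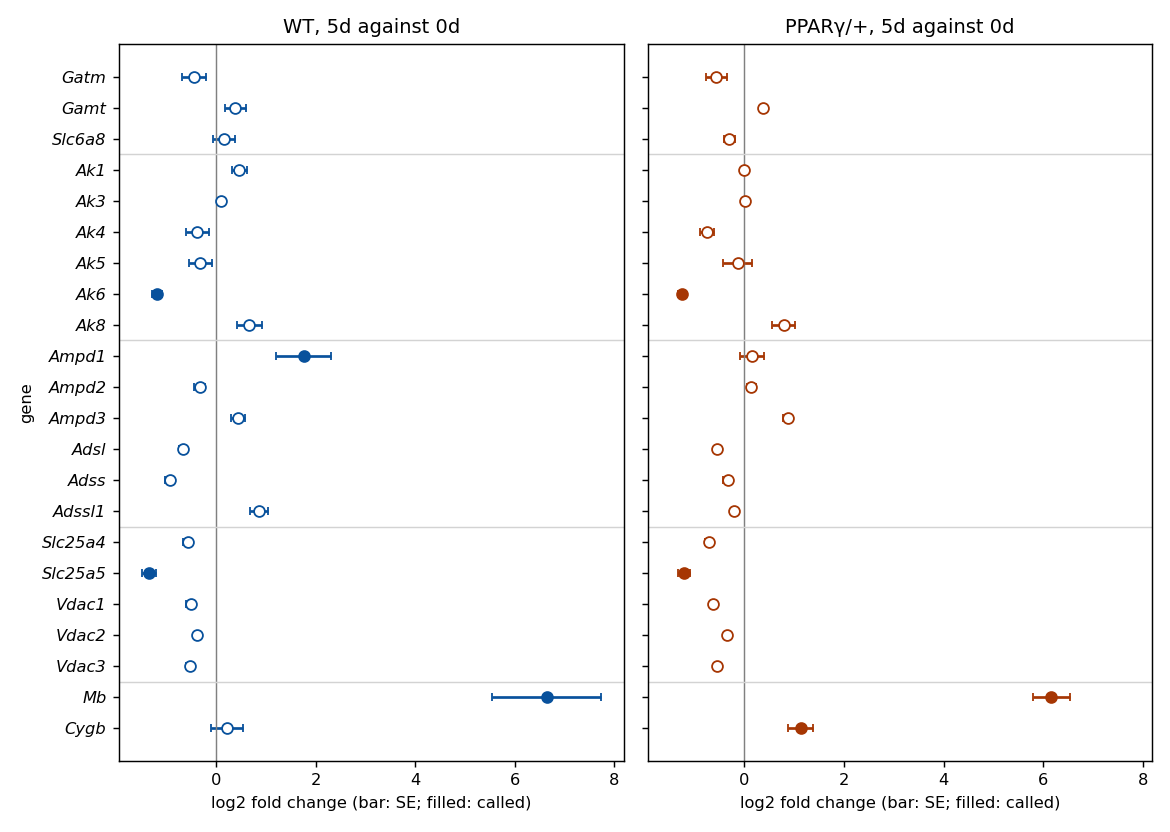
Log2 fold changes from 0d to 5d with their SE for the tested genes of 5 pathway lists (creatine supply, adenylate kinases, purine nucleotide cycle, ATP and ADP passage, globins, from top to bottom), in WT (left) and PPARγ/+ (right), with filled points for called changes. Mb and Ampd1 rise and Ak6 and Slc25a5 fall in WT, and Mb and Cygb rise and Ak6 and Slc25a5 fall in PPARγ/+. The filled point of Ampd1 is a description only, since this gene passed the filter only through WT_5d.

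For each gene tested, the genes with the most similar pattern over the 12 libraries were found by the root mean square difference of log2(FPKM + 0.1) after each gene was centred, among 12400 genes. Nearest to Ckm were Tnnt1, slow skeletal troponin T (0.43 log2), Atp2a1, the calcium pump of fast muscle (0.45), and Hfe2 (0.59), against an own spread of Ckm of 3.10. Nearest to Mb were Acta1, skeletal actin (0.43), Mybph (0.44) and Mymk, the fusion protein myomaker (0.46), against 3.37 for Mb. Nearest to Ckb were Chrnb1 (0.18) and Chrna1 (0.20), subunits of the muscle acetylcholine receptor, and Dusp13 (0.22), against 1.18 for Ckb. For Ampd1 they were Clic5 (0.31), Rbm38 (0.35) and Tead4 (0.36), against 0.94. Ak1, Slc6a8 and Gatm varied so little, with own spreads of 0.21, 0.27 and 0.44 log2, that their nearest genes were at 0.08 to 0.19 log2 and carry little pattern.

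Annotated exons of other genes overlap those of 4 of the 9 genes, and the library kit does not mark strand. The overlap was 451 bases for Ckm (A930016O22Rik, opposite strand), 412 for Mb (Gm49540, opposite strand), 84 for Ckmt2 (1700119I11Rik) and 10 for Ckmt1 (Strc). The length inferred from the FPKM steps was 1415 bases for Ckm and 1252 for Mb, against 2913 and 1492 annotated. Whether the overlapping stretches of these genes were counted is therefore not known. Where such a stretch was counted, reads from the partner cannot be told apart.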

How the data were processed

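RNA of 12 libraries of C2C12 cells was sequenced, with 3 in each of 4 groups taken from the labels. According to the study's methods, the authors deposited FPKM values made from HTSeq fragment counts on known genes, after trimming (Trim Galore) and STAR alignment against the GRCm38 genome of Ensembl release 83. The submitters' processing notes name another build, mm9, and since gene identifiers were used, no coordinate was taken from it. The second deposited table holds the log2 of FPKM plus 1 and was not used further. The authors called genes with DESeq2. Positions and lengths came from the GENCODE annotation of GRCm38. No columns were left out (0).

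FPKM is not a count, so limma 3.58.1 (R 4.3.3) was fitted with trend to log2(FPKM + 0.1) of the 18023 genes with at least 0.1 FPKM in at least 3 libraries, with adjustment by Benjamini-Hochberg over all of them. Each comparison used its own 6 libraries, and the interaction all 12. Fragments per library and gene were recovered from the steps of the FPKM values, with the length inferred from those steps for Ckm, Ckb and Mb. Shares were compared by exact permutation tests. Python 3.11.15, numpy 2.4.6, pandas 2.3.3, scipy 1.17.1 and matplotlib 3.10.9 were used. The limma fit was also run on simulated data with a common spread in all groups. The real WT_5d libraries lay further apart than those of the other groups, so the simulation does not cover comparisons with WT_5d.

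All 9 genes are named. Other genes are named where called in at least 1 comparison or where they are among the 3 nearest in pattern with a highest group mean of at least 1 FPKM. A further item of the lists is not reported here. Members and lists were chosen with earlier results of these data known. Alternatives were the value added, the filter, the scaling, a replicate block, a fit over all libraries, the p used for calls and each library left out. After seeing the data, 3 were added: limma-voom on the recovered fragments, a fit without the 2 libraries that stood apart, and levels relative to the myotube markers. The study calls the 3 libraries of a group biological replicates without saying whether they came from separate cultures or clones, so p-values measure the spread between these libraries, which may be technical. Fragment counts cover counting error only. Ratios to the floor set the lower group at a fixed 3 fragments per library and are not confidence limits.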

Additional observations from a re-analysis of the deposited data

Results flagged for a closer look

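For 1 gene of the pathway lists, WT and PPARγ/+ cells differed in their change between days by the interaction in limma. For Adssl1 the interaction was -1.08 log2 (adjusted p = 0.0435), with 0.87 log2 between days in WT and -0.21 in PPARγ/+. The call held without WT_0d replicate 1 (adjusted p = 0.0217) or WT_5d replicate 3 (0.0124) and was lost without each of the other 10 libraries, with adjusted p from 0.0628 to 0.126.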

How the results depend on the processing

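Ckm, Ckb and Mb were called between days in both cell types under every alternative run. With libraries left out these calls used an unadjusted p, and the limma adjusted p of Ckb in WT reached 0.0827. On 0d, 1 of the 7 genes was called (Ckb); with no filter, with all 12 libraries in one fit, with the replicate block and without WT_0d replicate 2 together with WT_5d replicate 3 there were 0, at an unadjusted p 2, and leaving out 1 library gave 0 to 1. Over all genes tested, 34 were called higher and 56 lower on 0d without both named libraries, and 226 higher and 435 lower at an unadjusted p. On 5d the count was 0, at an unadjusted p 2, from 0 to 4 with 1 library left out, and 4 without both named libraries. Over all genes tested, the 28 calls on 5d became 215 higher and 508 lower without WT_5d replicate 3. At an unadjusted p they became 279 higher and 327 lower. For the interaction it was 0, at an unadjusted p 2, from 0 to 2 with 1 library left out, and 3 without both. Over all genes the 137 interaction calls became 527 without WT_5d replicate 3 and 488 without both. At an unadjusted p they became 1230 higher and 934 lower in PPARγ/+. On 5d and for the interaction, each count above 0 includes Ampd1, which passed the filter only through WT_5d. Same-numbered libraries did not deviate together (correlations from -0.07 to 0.08). The sources do not say whether a replicate number marks a shared culture, and these correlations cannot exclude it. Under the block the 65 genes called higher and 222 called lower on 0d became 0, as did the 28 called on 5d. At an unadjusted p without the fold threshold, 2755 genes passed on 0d and 2001 on 5d under the block.

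Some values, none of them called, changed sign. With libraries left out, the log2 difference between days ranged from -0.02 to 0.46 for Cygb and from -0.02 to 0.36 for Slc6a8 in WT, and from -0.04 to 0.04 for Ak1 in PPARγ/+, passing -0.02 and -0.00. Between cell types it ranged from -1.17 to 0.53 for Mb on 0d (0.53 without WT_0d replicate 2), and on 5d from -0.16 to 0.15 for Slc6a8 (0.06 without PPARγ/+_5d replicate 3). The interaction ranged from -0.11 to 0.00 for Ak6, from -2.28 to 0.39 for Mb (0.08 without WT_5d replicate 1), from -0.51 to 0.12 for Gatm (0.04 without WT_5d replicate 1), from -0.12 to 0.81 for Ckb and from -0.01 to 0.25 for Slc25a5. The change of Ampd1 between days in PPARγ/+ was -0.01 under quantile normalization, and the interaction of Ckm 0.66 with 0.01 added and 0.58 under voom. Relative to the myotube markers, the 5d differences were 0.71 for Ckb, 1.16 for Ak1, 1.39 for Slc6a8, 0.91 for Gatm and 0.61 for Mb. The cause was not tested. Of 976 values under alternatives 898 kept their direction and call, 29 lost the call, 23 gained it and 26 changed sign. Depth limits Ckmt1, Ckmt2, Ampd1 and, on 0d, Ckm.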
